A study of Mus musculus with 8 samples.

Results

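The Hedgehog family examined here comprised 9 mouse genes, the ligands Ihh, Shh and Dhh, the receptor Ptch1, the transducer Smo, the inhibitor Sufu and the transcription factors Gli1, Gli2 and Gli3. They were found through the gene symbols of the platform annotation, which gave them 64 of the 33709 array features that had a listed gene, and 9 of 19087 genes. The study profiled messenger RNA of splenic B cells, labelled B splenocytes, on 1-colour Agilent arrays. The lymphoma group held 4 mice labelled c-myc/Cdk4(R24C) lymphoma, in which c-myc is combined with a Cdk4 kinase carrying the R24C change. The wild type group held 4 mice labelled wt, and both groups were of the strain C57BL/6. Neither the promoter that drives c-myc nor the age of the mice was stated in the labels. Each mouse gave 1 array, so n = 4 in each group, and precision is limited by this small number. Slide 1 carried lymphoma 1 and 2 with wild type 1 and 2, and slide 2 carried lymphoma 3 and 4 with wild type 3 and 4. On both slides wild type took positions 1 and 2 and lymphoma positions 3 and 4. Position on the slide therefore cannot be told apart from group.

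Hedgehog ligands are secreted, lipid-modified signals. Without ligand, PTCH1 holds the membrane protein SMO inactive, and SUFU keeps the GLI factors from activating transcription. Ligand binding to PTCH1 releases SMO, and GLI proteins then switch on target genes, among them Gli1 and Ptch1 themselves, which is why these transcripts are widely read as an output of the pathway. In lymphoid tissue, stromal and follicular dendritic cells have been described as sources of ligand for B cells.

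The family entered this comparison because Ihh was known to be higher in lymphoma on these arrays. The lymphoma minus wild type values of its members are therefore given as a description. Where a p value of a member is printed, it is the output of the fit across all features and supports nothing about the member. Values are log2 intensities, scaled so that the 75th percentile was equal on all arrays. A feature counts as above background on an array where it exceeds the 95th percentile of that array's 1113 features for olfactory and vomeronasal receptors, a bound that lay between 7.17 and 7.45.

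Before the results, facts of the arrays bear on how they can be read. Deposited medians lay between 7.04 and 7.26, and between 50.2% and 52.9% of the features exceeded the bound of their array. The array of wild type 1 had a mean correlation across features of 0.963 to the lymphomas and of 0.941 to the remaining controls, so the main results are also given without it. Leaving out a control for its likeness to the lymphomas can itself widen the group differences, so those results are a description. All 9 measured B cell markers, Cd79a, Cd79b and Ms4a1 among them, exceeded the bound on all 8 arrays. Macrophage and monocyte markers moved with the groups: 6 of 10 fell in lymphoma and 0 rose (limma, adjusted p under 0.05), and their summed intensity ranged from 15971 to 25226 in lymphoma, against 36405 to 64688 in wild type. Of 7 granulocyte markers S100a8 fell and 0 rose, with sums of 1807 to 5488 in lymphoma and 7466 to 18397 in wild type. Of 6 follicular dendritic cell markers 3 fell, Mfge8 and the genes Fcer2a and Cr2 that B cells also express, with sums of 1413 to 2020 in lymphoma and 7934 to 44212 in wild type. None of 10 stromal fibroblast markers and none of 8 endothelial markers passed in limma, with 1 of each list under an unadjusted p of 0.05. Their sums were 4816 to 8570 in lymphoma against 8642 to 11210 in wild type for the stromal list, and 1599 to 1746 against 1918 to 2410 for the endothelial list. Such sums weigh the brightest markers most, and the median log2 difference was -0.14 over the stromal list and -0.02 over the endothelial list. Among the stromal markers Col1a1, Col3a1, Lum and Fap exceeded the bound on no array. The part of these cells in the results below was not tested.

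Only 2 of the 64 features exceeded the background bound on all 4 lymphoma arrays, 1 for Ihh and 1 for Sufu. Among all features that share was 46.3%. The bases before the RefSeq start sites of these 2 genes are shown because theirs are the 2 features read above the bound in every lymphoma, and capitals mark GGGCGG (the GC box bound by SP1) on either strand. The windows are those of RefSeq on GRCm38.p6, at chr1:74951673-74951922 on the minus strand for Ihh and chr19:46396646-46396895 on the plus strand for Sufu, and each ends 1 base before the start site.
Ihh: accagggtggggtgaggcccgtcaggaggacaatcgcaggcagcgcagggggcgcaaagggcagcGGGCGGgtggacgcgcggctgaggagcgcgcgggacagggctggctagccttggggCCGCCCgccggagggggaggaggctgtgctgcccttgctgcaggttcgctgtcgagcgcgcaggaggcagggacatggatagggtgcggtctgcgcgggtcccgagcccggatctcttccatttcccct
Sufu: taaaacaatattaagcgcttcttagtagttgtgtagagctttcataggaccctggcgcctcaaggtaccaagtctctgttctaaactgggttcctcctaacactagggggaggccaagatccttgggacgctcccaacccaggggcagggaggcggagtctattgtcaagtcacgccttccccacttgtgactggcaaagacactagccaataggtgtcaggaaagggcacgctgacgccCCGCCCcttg
The Ihh window is 72.0% G and C and the Sufu window 54.0%. The GC box was found at 2 places in the Ihh window and 1 in the Sufu window, and 32.7% of 32851 RefSeq windows of 250 bases hold it. The E-box CACGTG, which MYC and MAX bind, was searched on both strands and is in neither window, and 6.02% of all windows hold it. The GLI site GACCACCCA is in neither window either, and 0.225% of all windows hold it. RefSeq windows were matched for 7 of the 9 members, and neither the E-box nor the GLI site is in any of the 7. For Ptch1 and Gli2 the window lies inside the span that RefSeq gives the gene, and for Dhh it overlaps that span. The bases before the whole span of Ptch1 and Gli2 were thus not searched.

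Ihh, Indian hedgehog, encodes the ligand best known from cartilage and gut, and it gave the one large difference of the family. Its gene lies on chromosome 1 from 74945315 to 74951672. The brightest of its 11 features read 8.96, 11.92, 11.29 and 10.48 in lymphoma 1 to 4, against 6.48, 7.31, 6.60 and 6.55 in wild type 1 to 4. All 4 lymphoma arrays exceeded the bound, all 4 wild type arrays lay under it, and the groups did not overlap. The means were 10.66 ± 1.28 in lymphoma and 6.73 ± 0.38 in wild type (SD, n = 4 each), a log2 difference of 3.93 ± 0.51 (SE). Because wild type had only a bound, this amounts to at least 10.4-fold higher in lymphoma, where wild type is taken at the bound of each array. With the 99th percentile of the receptor features as the bound, chosen after the data were seen, it is at least 5.19-fold. The brightest feature was taken by its mean over both groups, and this one was picked through its lymphoma values. By wild type values alone it would not have been picked, since another Ihh feature had a higher wild type mean, 7.08. The pick thus leaned on the difference itself, so the difference of 3.93 and both folds are a description.

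The lymphomas were far from uniform. Lymphoma 1 read 2.96 lower than lymphoma 2 on the same slide, and it was the lowest of the 4. Within slide 1 the difference was 3.54, and within slide 2 it was 4.31. Wild type 1, which resembled the lymphomas across the whole array, read 6.48 for Ihh and so lay with the other controls. Without wild type 1 the difference was 3.84 ± 0.56 (SE). The mean over a preparation of many cells does not tell fewer cells of a type from less RNA per cell, and this holds for every value here.

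**Figure D1:**
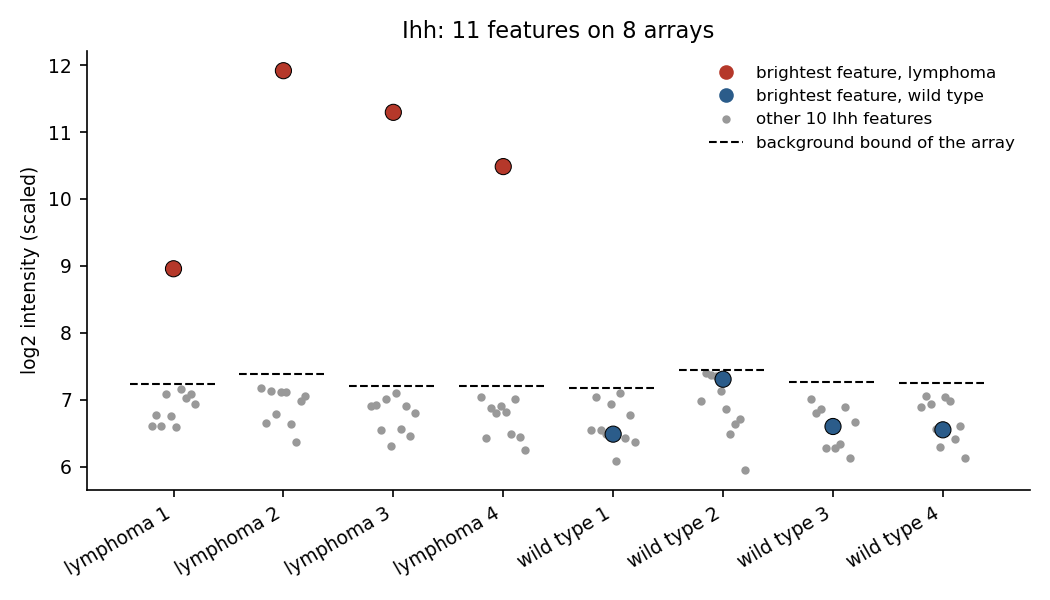
Scaled log2 intensity (vertical axis) of the 11 Ihh features on the 4 lymphoma arrays (left, red) and the 4 wild type arrays (right, blue). Large points are the brightest feature, which read 8.96 to 11.92 in lymphoma and 6.48 to 7.31 in wild type, small grey points are the other 10 features, and dashes are the background bound of each array.

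The other 10 Ihh features did not follow it. None exceeded the bound on any array, and their differences lay between -0.38 and 0.48. On lymphoma 2, where the brightest feature read 11.92, the highest of the other 10 read 7.17 and their median was 7.02. The annotation puts 9 of these 10 under the same RefSeq transcript as the brightest feature and the remaining 1 under a cDNA clone. Features are known here by number alone, and whether the 10 features of that transcript carry the same probe was not tested. Nor was it tested what the probe of the brightest feature matches, so the fold given above is that of 1 feature annotated to Ihh, which its other features did not show. The mean of all 11 features differed by 0.45 ± 0.17 (SE).

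How unusual such a disagreement is can be read from other genes. The annotation lists 218 accessions with 8 or more features each. In the Ihh set the gap between the highest and the second highest lymphoma minus wild type difference was 3.59, the widest of the 218. The next widest was 1.70, and the median was 0.13. Features of 1 transcript also parted at the low end, measured the same way after the data were seen. There the widest gap was 2.44, for Myf5, followed by 1.91 for Vegfa and 1.85 for Tlr4. A gap of 1 or more was found in 4 sets at the high end and 4 at the low end. A feature passed an adjusted p of 0.05 in 22 of the 218 sets, and in 11 of these 22, Ihh included, it was 1 feature alone. In all of these 11 but Ihh and Tnf, every feature differed in the same direction. The differences were 0.66 to 1.71 for Il18 and -1.46 to -0.61 for Igf1, for example. In 7 sets, the Ihh set included, exactly 1 feature exceeded the bound on all 4 lymphoma arrays, while in 69 every feature did and in 119 none did. Since Ihh was chosen for its difference, its place in this order is a description.

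**Figure D2:**
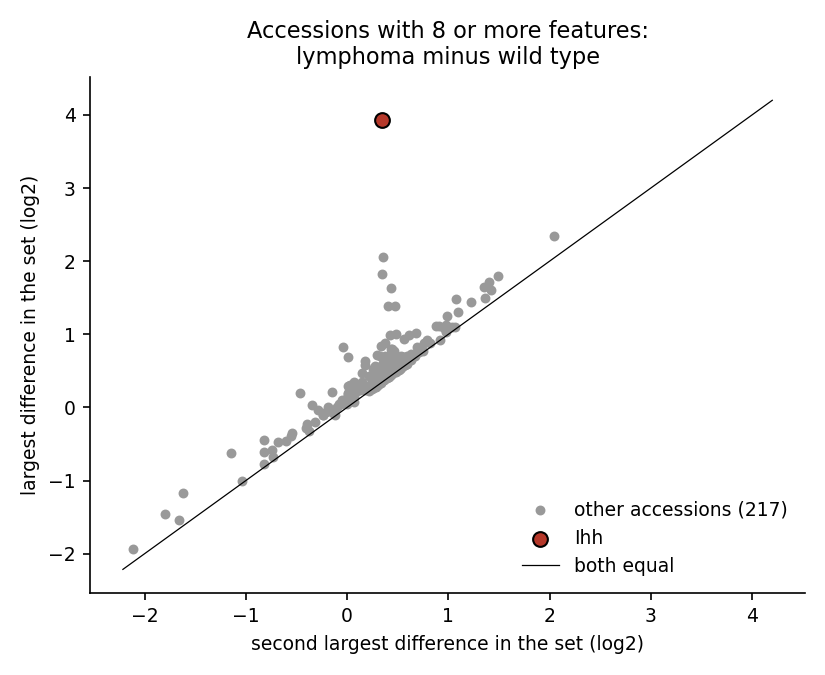
For each of 218 accessions with 8 or more features, the highest (vertical axis) against the second highest (horizontal axis) log2 difference of lymphoma minus wild type among its features. The line marks equal values, and Ihh (red) stands 3.59 above it, where the next accession stands 1.70 above.

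The other ligands were at background. Shh, Sonic hedgehog, had 10 features under 1 transcript, and 3 of their 80 readings exceeded the bound. Its brightest feature read 7.02, 7.93, 6.51 and 6.27 in lymphoma 1 to 4, against 6.43, 7.22, 6.24 and 6.51 in wild type 1 to 4. Lymphoma 2 alone lay above the bound of its array, and the groups overlapped. The difference was 0.34 ± 0.36 (SE), with a 95% interval from -0.44 to 1.11. Dhh, Desert hedgehog, which acts in testis and peripheral nerve, had 1 feature that exceeded the bound on no array. It read 6.62, 6.95, 6.40 and 6.09 in lymphoma and 6.502, 7.03, 6.01 and 6.21 in wild type, and these ranges overlapped.

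Ptch1, the receptor and a target of the pathway, had 13 features, and none exceeded the bound on all arrays of a group. Of its 104 readings 19 did so, 10 in lymphoma and 9 in wild type. The brightest feature read 7.28, 7.43, 6.88 and 6.96 in lymphoma, against 7.02, 7.46, 7.31 and 7.10 in wild type. These values overlapped, with a difference of -0.09 and a 95% interval from -0.56 to 0.39. Over the 13 features the differences lay between -0.17 and 0.47, 8 of them above 0 and 5 below. Smo, the membrane protein that carries the signal inward, had 3 features with 0 of 24 readings above the bound, so both groups have only a bound. Its brightest feature read 6.65, 6.77, 6.32 and 6.86 in lymphoma and 6.34, 7.19, 6.84 and 6.69 in wild type.

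Sufu, the cytoplasmic inhibitor of the GLI factors, was the one member read well above background in both groups. Its brightest feature, annotated to a cDNA clone, read 8.71, 8.65, 9.29 and 9.17 in lymphoma 1 to 4, against 9.19, 9.61, 9.61 and 9.44 in wild type 1 to 4. The 2 lymphomas of slide 1 were the lowest, and lymphoma 3 lay above wild type 1, so the groups overlapped. The means were 8.96 ± 0.32 in lymphoma and 9.46 ± 0.20 in wild type (SD, n = 4 each), a difference of -0.51 ± 0.23 (SE) with a 95% interval from -1.005 to -0.01. Within slide 1 the difference was -0.72 and within slide 2 it was -0.30. The other 2 Sufu features, both under the RefSeq transcript, differed by -0.14 and -0.003, and 7 of their 16 readings exceeded the bound.

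**Figure D3:**
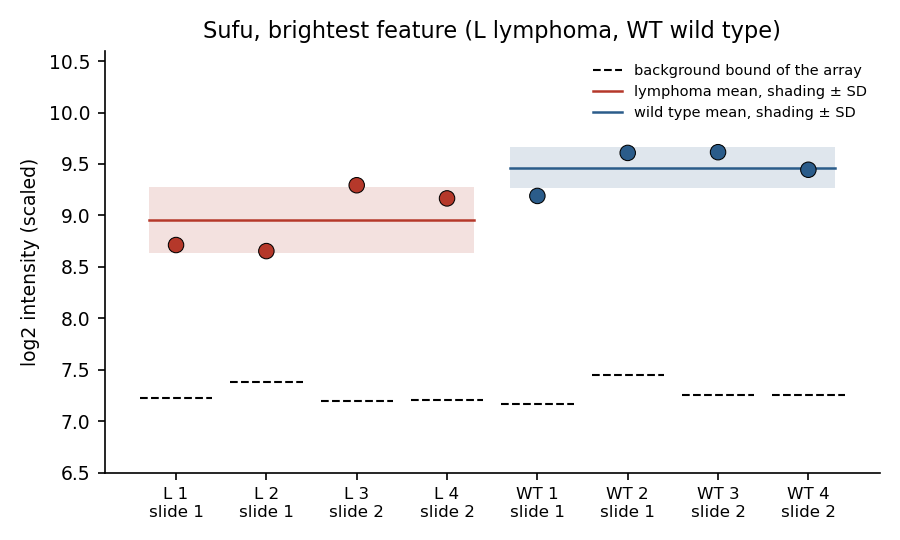
Scaled log2 intensity (vertical axis) of the brightest Sufu feature on 4 lymphoma arrays (left, red) and 4 wild type arrays (right, blue), with the slide under each. Lines are the group means of 8.96 in lymphoma and 9.46 in wild type, shading is the SD, and dashes are the background bound of each array.

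The GLI factors, which carry the pathway's output to DNA, were at background. Gli1, an activator and itself a target, had 10 features and 2 of 80 readings above the bound, 1 in each group. Its brightest feature read 6.92, 7.07, 7.73 and 6.80 in lymphoma, against 6.48, 6.85, 6.29 and 6.91 in wild type. Lymphoma 3 alone exceeded its bound, and lymphoma 4 lay under wild type 4. The difference was 0.50 ± 0.26 (SE), with a 95% interval from -0.07 to 1.06, while over its 10 features the median difference was 0.06. Gli2, the main activator in many tissues, had 2 features with 0 of 16 readings above the bound and differences of 0.04 and 0.16. Gli3, whose processed form represses targets, had 11 features with 1 of 88 readings above the bound and differences between -0.11 and 0.31. For both the groups overlapped on every feature.

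Over the family, 1 of 64 features passed an adjusted p of 0.05 in limma, the brightest Ihh feature, higher in lymphoma with an adjusted p of 0.00622. Ihh was known to be higher in lymphoma on these arrays when the family was chosen, so its call follows from the choice and supports nothing. Of all 33709 features 1.65% passed, 0.656% higher and 0.997% lower in lymphoma, which is 221 higher and 336 lower, against 158 higher and 429 lower on the values as deposited. Without wild type 1 the difference was -0.60 for the brightest feature of Sufu, -0.26 for Smo, -0.15 for both Ptch1 and Gli3, 0.10 for Dhh, 0.28 for Shh, 0.38 for Gli2 and 0.45 for Gli1. In that fit the same 1 member feature passed, where 6.87% of all features did. The other 63 differed by -0.51 to 0.51, with adjusted p values of at least 0.332 and 1 of them, Sufu, under an unadjusted p of 0.05. The 95% intervals of those 63 differences reached from -1.005 at the lowest to 1.11 at the highest, but a change of a transcript under the background bound would not be seen. The lymphoma values lay wholly above the wild type values for 1 of the 64 features and wholly below for 0, against 4.44% and 4.81% of all features. The median difference of the 64 features was 0.08, as was that of all features. Leaving aside the brightest Ihh and Sufu features, 32 of 496 readings (6.45%) exceeded the bound, 18 in lymphoma and 14 in wild type, against 4.92% of the readings of the receptor features that set the bound. These 32 were uneven over the genes: Ptch1 gave 19, and most of the rest came from the other 2 Sufu features.

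**Figure D4:**
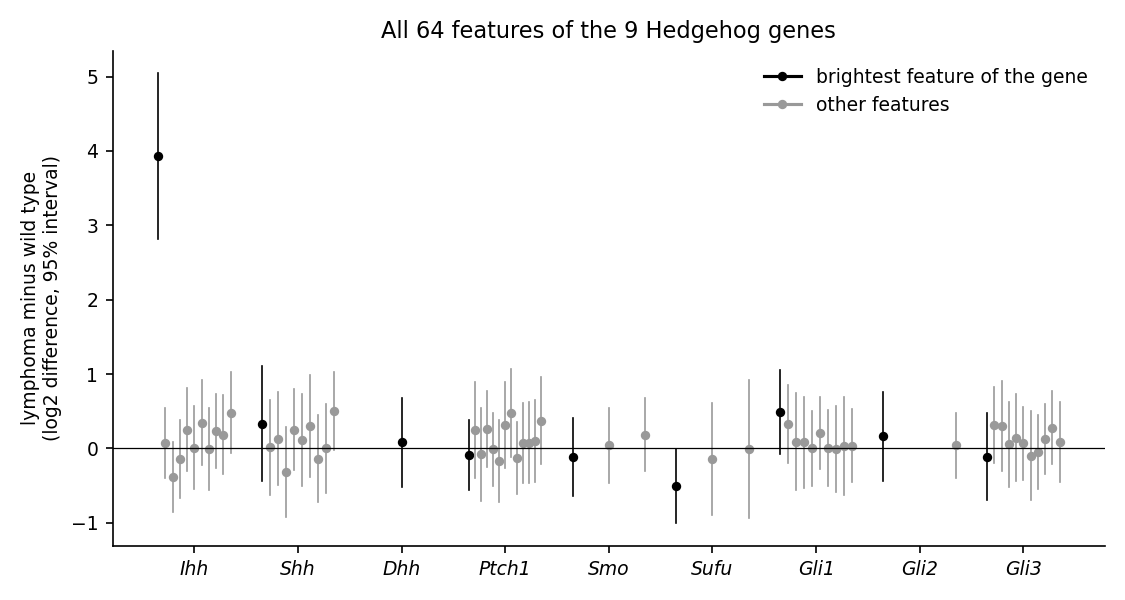
Log2 difference of lymphoma minus wild type (vertical axis) with its 95% interval for all 64 features of the 9 genes (horizontal axis). Black marks the brightest feature of each gene and grey the others. The brightest Ihh feature stands at 3.93 and the other 63 between -0.51 and 0.51.

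Further genes of the pathway were taken from 5 lists by role, 98 genes measured of 109. By the brightest feature of each gene, 0 of the 98 passed an adjusted p of 0.05 in limma in either direction, and 17 lay under an unadjusted p of 0.05. Of all 33709 features, counted by feature and not by gene, 4900 lay under that unadjusted p. Of all 19087 genes 2.09% passed, 0.817% higher and 1.27% lower in lymphoma. The median difference of the 98 genes was 0.03. Of the 98, 55 exceeded the bound on all lymphoma arrays, 50 did on all wild type arrays and 21 did on no array.

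Of 6 genes for ligand processing and release, 3 were above the bound on all 8 arrays. These include Hhat, the acyltransferase that attaches palmitate to Hedgehog ligands, and Disp1, which releases them from the cell. Hhat averaged 8.19 in lymphoma and 8.49 in wild type, and Disp1 averaged 9.80 in lymphoma and 9.72 in wild type. The widest differences of this list were -0.62 for Glg1, a Golgi glycoprotein (adjusted p 0.408; -0.28 without wild type 2, which read 14.22), and 0.21 for Scube2, a secreted factor that helps release ligand and that exceeded the bound on no array (adjusted p 0.747). The 7 coreceptors and ligand-binding inhibitors were at background in the main: none exceeded the bound on all arrays of a group, and 5 did so on no array. Hhip, a membrane protein that binds and blocks ligand and is itself a target, averaged 6.61 in lymphoma and 6.40 in wild type, and the coreceptors Boc and Gas1 were likewise under the bound on every array. Hhipl1, a relative of Hhip, differed by -0.57 (adjusted p 0.764). The glypican Gpc3, which exceeded the bound on no array, differed by 0.48 (adjusted p 0.367). The value of Hhipl1 came from wild type 3, at 10.29 against 6.21 to 6.97 in the other controls, and without that array it was 0.35.

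Most of the 27 measured kinases, ubiquitin ligases and other regulators of SMO and GLI were read above background, 23 on all lymphoma arrays. Arrb2, a beta-arrestin that binds activated SMO, read 9.62, 9.72, 9.34 and 9.89 in lymphoma against 10.12, 11.08, 10.65 and 10.76 in wild type, a difference of -1.01 ± 0.25 (SE; adjusted p 0.0698). The 2 groups did not overlap for Arrb2, yet it did not pass. Evc2, which anchors SMO complexes at the base of the cilium, read 9.01, 10.18, 8.75 and 9.08 in lymphoma, against 10.80, 6.29, 7.32 and 6.74 in wild type. Wild type 1 was above every lymphoma, and the difference was 1.47 ± 0.79 (SE; adjusted p 0.428). Of 30 cilium genes 20 were above the bound on all 8 arrays. Ift27, an intraflagellar transport subunit, averaged 13.79 in lymphoma and 12.76 in wild type (difference 1.03, adjusted p 0.113). Kif7, the cilium tip kinesin that controls GLI processing, differed by -1.76 ± 0.88 (SE; adjusted p 0.39). It was at background on all lymphoma arrays and on wild type 1 and 4, and read 9.37 and 11.31 on wild type 2 and 3. Without wild type 3 the difference was -0.79.

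Among 28 genes described as Hedgehog targets in other tissues, 9 exceeded the bound on all lymphoma arrays. Hes1, a transcriptional repressor better known from Notch signalling, averaged 7.90 in lymphoma and 8.78 in wild type (difference -0.88, adjusted p 0.144). Igf2, a growth factor, differed by 1.01 (adjusted p 0.394), and lymphoma 1 read 9.54 while the other lymphomas read 6.94 to 7.31. Without lymphoma 1 the difference was 0.39. Of the 246 features of the 98 genes 1 passed, where 1.65% of all features did. It belongs to Ccnd2, which encodes cyclin D2, and the brightest Ccnd2 feature did not pass. The feature that passed read 13.95, 13.27, 14.25 and 14.44 in lymphoma, against 12.94, 12.83, 12.28 and 12.28 in wild type. Its difference was 1.40 ± 0.29 (SE; adjusted p 0.0373).

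Without wild type 1, 8 of the 98 genes passed, about the share of all genes in that fit, which was 8.15%. The array was left out for its likeness to the lymphomas, which can itself widen the differences, so these 8 are a description. Evc2 (2.47), Ofd1 (1.35), Ift27 (1.19) and Ift20 (1.13) were higher in lymphoma, and Ift140 (-1.52), Arrb2 (-1.18), Hes1 (-1.09) and Tctn1 (-0.84) were lower. Each of these is a log2 difference with an adjusted p of at most 0.0431 in limma. The array left out did not read like the other controls for several of them. For Ofd1 the lymphomas averaged 11.16, against 11.56 on wild type 1, and for Ift20 the lymphomas averaged 13.02, against 13.62 on wild type 1. For Tctn1 the lymphomas averaged 7.93, against 7.92 on wild type 1. Ift20, Ift27, Ift140, Ofd1 and Tctn1 come from the list of 30 measured cilium genes, of which 0 passed with all 8 arrays.

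**Figure D5:**
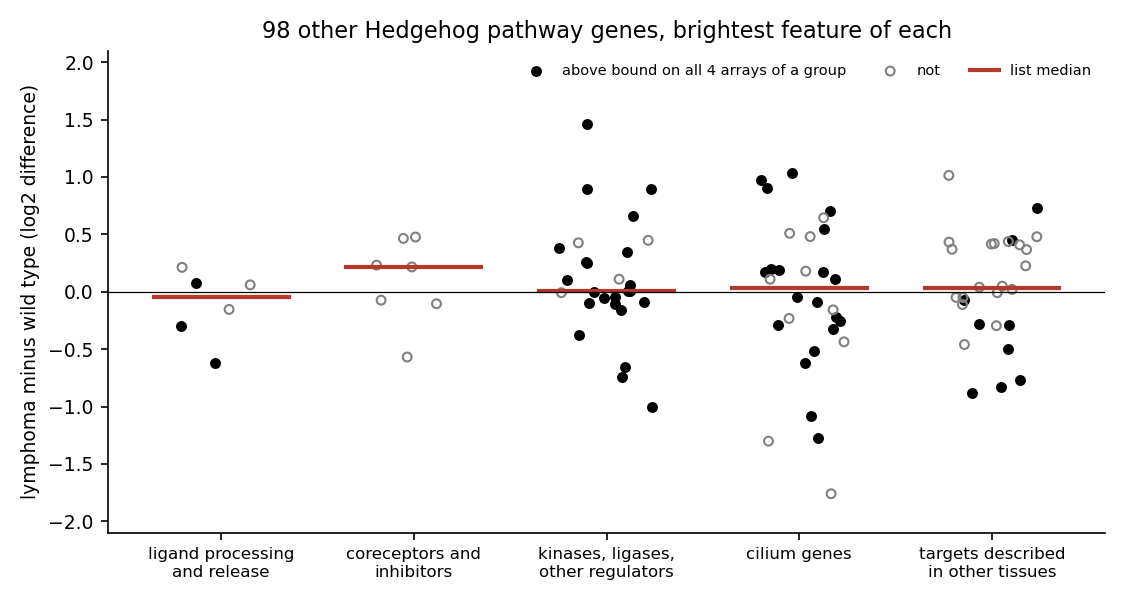
Log2 difference of lymphoma minus wild type (vertical axis) for the brightest feature of 98 further pathway genes in 5 lists (horizontal axis). Filled points exceeded the bound on all 4 arrays of at least 1 group, open points did not, and red lines are list medians. None of the 98 passed an adjusted p of 0.05.

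The genes whose brightest feature followed that of Ihh most closely over the 8 arrays, among 10584 genes above the bound on at least 4 arrays, were Nectin2, Pafah2, Poglut2, Gas7 and Crtam, with Pearson correlations between 0.936 and 0.968. Nectin2, an adhesion molecule, read 8.97, 9.85, 9.95 and 9.67 in lymphoma, against 6.54, 7.32, 7.29 and 6.49 in wild type. These correlations over 8 arrays of 2 groups mostly carry the difference between the groups. With each group's mean taken off, the closest were Pigt, Cotl1, Srek1ip1, Ube2w and Bcl7b, with correlations between 0.918 and 0.957. Bcl7b, a chromatin remodelling subunit, read 8.22, 11.92, 10.93 and 10.09 in lymphoma 1 to 4, the same order as Ihh, and 8.07, 8.12, 8.11 and 8.78 in wild type 1 to 4. All points share the same 8 hybridizations, and the genes were picked for their likeness from many.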

How the data were processed

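The values are log2 intensities that the authors deposited, with 45220 features and 8 arrays. Per the labels' protocols, 0.5 µg of polyA RNA from a Chomczynski extraction was labelled with Cy3 by the Agilent low RNA protocol. No source used here states the scanner, the background correction or the normalization, so array scale factors are unknown. Values are not centred by feature. The platform annotation listed a gene for 33709 features, of which 56 had several symbols and were not named. Arrays were scaled to a common 75th percentile over listed features, which differed by up to 0.215 as deposited. The background bound comes from olfactory and vomeronasal receptor features. The limma package (3.58.1, R 4.3.3) fitted group alone (lmFit, eBayes). Its p-values are two-sided and adjusted by Benjamini-Hochberg over the 33709 features. A call is an adjusted p under 0.05. A gene is represented by its brightest feature, taken by the mean of the 8 arrays. This mean includes both groups, so a feature high in only lymphoma or only wild type can be picked through that group. The fit was tested on simulated data, where it recovered 24% of changes of 1 log2 unit, 84% of 2, 96% of 3 and 98% of 4. The simulated noise was independent between features and few features were changed, which the real arrays need not follow. These percentages are thus a guide only. A count of 0 therefore does not exclude changes of about 1 log2 unit.

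The named genes are all 9 members, and from each role list the called genes or, where none was called, the widest difference in each direction. Others named were chosen after their values were seen. Members and lists were chosen with earlier results of these data known. The labels give separate mice but no litter or day, and p-values measure only the spread between these samples, which may be technical in part. Alternatives were other scalings, a filter, a floor, other eBayes settings, array weights, the slide or replicate number as a block, each slide alone, the mean of a gene's features and leaving out each array. Gene positions and windows before start sites are those of RefSeq on GRCm38.p6.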

Additional observations from a re-analysis of the deposited data

Results flagged for a closer look

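In 58 groups of 4 arrays, covering the members and the other genes named by rule, 1 array stood far from the other 3 in 3 cases, and chance gives such a case in about 5% of groups. The brightest Ihh feature read 7.31 on wild type 2, against 6.48 to 6.60 on the other wild type arrays, and was still under the background bound of its array. Igf2 read 9.54 on lymphoma 1, against 6.94 to 7.31 on the other lymphomas. Bcl7b read 8.78 on wild type 4, against 8.07 to 8.12 on the other wild type arrays.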

How the results depend on the processing

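Ihh was chosen for its difference, so its values here describe the settings and add no support. Of 20 alternatives, its adjusted p was above 0.05 within slide 1 alone (3.54 ± 0.96 SE, adjusted p 0.708) and as the mean of all 11 features (0.45, adjusted p 0.209). Slide 2 alone, with as many arrays, gave 4.31 ± 0.31 (adjusted p 0.00769). The lymphomas of slide 1 lay 2.96 apart. Leaving out 1 array gave 3.51 to 4.497. The count of 1 member feature was also 1 under 18 of 19 alternatives, each array left out included (1 to 1), and was 0 within slide 1 alone, with 3 under an unadjusted p of 0.05 in limma. The count of 0 pathway genes became 2 as deposited (Arrb2 and Ift140), 1 with scaling to the median and 1 without the dimmer 50% of features (Ift140 in both), 4 with array weights, 7 within slide 2 alone, and 0 to 8 with 1 array left out, the 8 being without wild type 1. The cause was not tested. Hhipl1 turned to 0.35 within slide 1 alone and without wild type 3, in a range of -1.01 to 0.35 with 1 array left out. Of all features 557 passed, against 2317 without wild type 1, 2128 with array weights, 1949 within slide 2, 0 within slide 1 (1761 under an unadjusted p of 0.05) and 84 to 306 without any 1 of the other arrays. As deposited, 158 rose and 429 fell, against 221 and 336. Replicate numbers shared between groups gave correlations of -0.04 to 0.27 between same-numbered arrays. Each slide held its own replicate numbers, so these values do not decide whether the numbers pair the arrays. With a replicate block Ihh kept 3.93 ± 0.36 (SE; adjusted p 0.00175). In that fit 1 member feature, 0 pathway genes and 713 of all features passed. No signal under the bound can be ordered.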
